A study of Mus musculus with 12 samples.

Results

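Anti-PD-1 antibody was compared with an isotype control antibody in MC38 tumors carried by CC080 F1 mice. The cells were those that the deposited metadata place in strain CC080, which gave 13659 of the 93126 cells of the series, from 6 of 48 tumors. The hosts were female F1 mice of a C57BL/6J x CC080/TauUncJ cross, between 8 and 12 weeks old. CC080 is a Collaborative Cross strain, an inbred line bred from several founder strains. Each mouse received 500000 MC38 cells, a colon carcinoma line of C57BL/6 origin, under the skin. At 75 to 110 mm3 of tumor it was given 200 µg of isotype control (clone 2A3) or of anti-PD-1 (aPD1, clone 29F.1A12) into the peritoneum, once, and the tumor was taken 48 h later. No tumor was left without an antibody, so the isotype tumors are the controls. Cells were sorted to hold 90% CD45+ and 10% CD45- cells, and 4 tumors shared a droplet library, here called a pool. Pools 3, 4 and 11 each held 1 isotype and 1 aPD1 tumor of CC080 hosts, so 3 pairs were available. The study classed CC080 hosts among the non-responders to this antibody. The other tumors, which enter the fits, had the same antibodies in female hosts. These were F1 mice of C57BL/6J with CC036/UncJ or CC079/TauUncJ (non-responders as well), with CC001/UncJ, CC002/UncJ or CC075/UncJ (responders) or with CC007/UncJ, and inbred C57BL/6J mice (B6).

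PD-1 is a receptor on activated T cells and some NK cells that dampens their signalling when it binds PD-L1 or PD-L2, the products of *Cd274* and *Pdcd1lg2*, on tumor and myeloid cells. Blocking antibodies release that brake, and T and NK cells so released make interferon-gamma (*Ifng*). Macrophages answer interferon-gamma with the CXCR3 ligands *Cxcl9* and *Cxcl10*, with guanylate-binding proteins and with MHC class II, and they also raise *Cd274*.

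The tumors of a pool were told apart by the DNA barcode of a hashing antibody, and the barcodes are shown because they followed the treatment. Every isotype tumor carried C0303 and every aPD1 tumor C0304, so treatment and barcode cannot be told apart within CC080. The designed barcodes, 15 bases each, were as follows.
C0303, isotype: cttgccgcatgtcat
C0304, aPD1: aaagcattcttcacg

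The isotype tumors gave 2989, 2347 and 2330 cells in pools 3, 4 and 11 and the aPD1 tumors 2208, 1854 and 1931. Their totals ran from 6985232 to 14596054 transcripts counted by unique molecular identifier (UMI), and the median per cell from 2333 to 4960 UMIs. The 3 libraries shared between 26 and 37 cell barcodes pairwise. Of the 6 tumors, 2 carried the same animal identifier, the isotype tumor of pool 3 and the aPD1 tumor of pool 4, which received opposite antibodies. Whether they are tumors of 1 animal or a label is wrong cannot be told from the labels, so the independence of these samples and the identity of either is uncertain. The isotype tumor of pool 3 also stood apart in cell makeup. Between it and the other isotype tumors, 44% and 41.4% of cells would have to change cluster to make the makeups equal, against 18.2% to 24.4% between it and the aPD1 tumors, the least for the aPD1 tumor of pool 4 that shares its identifier. Since the barcodes followed the treatment, an exchange of labels in pool 3 cannot be checked, and the isotype values of pool 3 rest on its label. Several results are therefore also given without it. Since it was singled out by its cell makeup, values without it are a description. In what follows, values are ordered as pools 3, 4 and 11 unless stated.

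Macrophages held most cells of every tumor. T/NK cells were 7.39%, 33.0% and 19.7% of the cells of the isotype tumors and 10.4%, 11.7% and 5.49% of those of the aPD1 tumors. The aPD1 tumors were lower in pools 4 and 11 and higher in pool 3, and the groups overlapped. The means were 20.02% ± 12.8 and 9.17% ± 3.25 (SD, n = 3 each), with an exact two-sided permutation p of 0.3 and an adjusted p of 0.667 over 5 such tests. With 3 tumors against 3, that test cannot give a p below 0.1. The difference was -10.9 percentage points, and -17.2 without the isotype tumor of pool 3, which had the lowest share among the controls. Without the isotype tumor of pool 4, which had the highest, the difference was smaller.

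Macrophages were 80.1%, 51.6% and 61.8% of the isotype tumors and 76.0%, 75.2% and 79.7% of the aPD1 tumors. The aPD1 tumors lay close together, inside the wide isotype range (exact permutation p = 0.4, adjusted 0.667). Cytotoxic T cells, taken as cluster 3 (led by *Cd8a*, *Lag3* and *Pdcd1*) and cluster 13 (led by *Il2*, *Ifng* and *Xcl1*), were 1.84%, 6.18% and 0.730% of isotype tumors against 1.18%, 2.10% and 0.518% of aPD1 tumors. They were lower with aPD1 in 3 of 3 pools, with an exact permutation p of 0.6, an adjusted p of 0.75, and an exact sign-flip p of 0.25 over pairs, which is the smallest that 3 pairs allow. Singly, cluster 3 was higher with aPD1 in pool 11 (0.300% to 0.414%) and cluster 13 in pool 3 (0.0669% to 0.0906%), each lower in the other pools. Cluster 12, led by *Gzmb* and *Prf1* and not in this class, was higher with aPD1 in pools 3 and 11 and lower in pool 4. Regulatory T cells (cluster 8, rich in *Foxp3*, *Ctla4* and *Ikzf2*) were 2.58%, 5.03% and 2.19% of isotype tumors and 3.49%, 5.50% and 1.14% of aPD1 tumors, a mean difference of 0.112 percentage points (exact permutation p = 1.0, adjusted 1.0) whose sign turned when single tumors were left out.

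**Figure D1:**
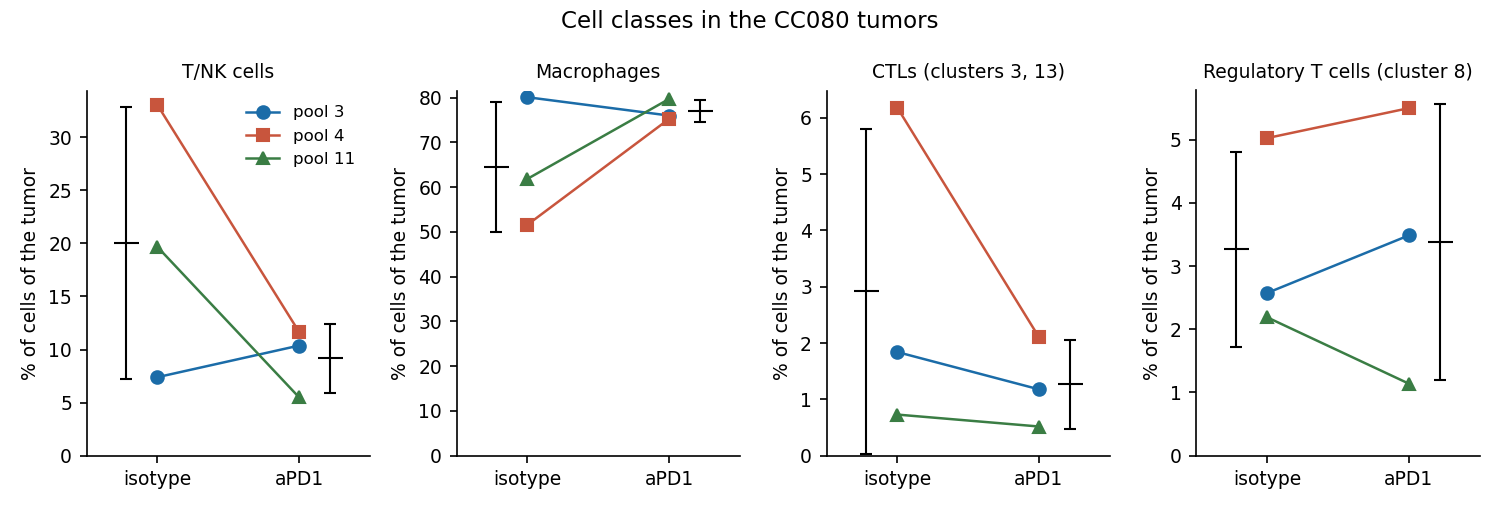
Percent of each tumor's cells in 4 cell classes, with the tumors of a pool joined by a line, and the mean and SD of 3 tumors beside each group (a bar that would pass below 0 stops there). T/NK cells are lower with aPD1 in pools 4 and 11 and higher in pool 3, where the isotype tumor holds 7.39%.

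No cluster share passed the test. In edgeR's quasi-likelihood fit over 48 tumors with the pool as a block, 0 of 27 clusters (0.0%) had a Benjamini-Hochberg adjusted p under 0.05, 2 of 27 (7.41%) an unadjusted p under 0.05, and limma on the logit of the shares also called 0. Groups did not overlap for 3 clusters that were higher with aPD1 (11.1%) and for 1 that was lower (3.7%).

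Among lymphoid clusters, the means of clusters 10, 7 and 24 were lower with aPD1. Cluster 10, T cells with *Cd4*, *Ctla4* and *Tnfrsf4* and no *Foxp3* in the median tumor of the series, was 0.201%, 3.71% and 1.03% of the isotype tumors. In the aPD1 tumors it was 0.136%, 0.0539% and 0.155%. These shares come from 6, 87 and 24 isotype cells and 3, 1 and 3 aPD1 cells, so those with aPD1 rest on few cells. The aPD1 tumors all lay below the isotype tumors, narrowly in pool 3 (log2 fold -3.31, SE 1.28, edgeR adjusted p = 0.412). Cluster 7, T cells that hold more *Tcf7* and *Lef1* than the other CD8 clusters, was 1.00%, 10.6% and 8.33% of isotype and 2.85%, 1.35% and 1.81% of aPD1 tumors, and cluster 24, the NK cells, was 1.14%, 4.64% and 6.01% against 2.04%, 1.19% and 1.19%. In both clusters the isotype tumors of pools 4 and 11 were above every aPD1 tumor and that of pool 3 below (log2 fold -1.35 and -1.23, edgeR adjusted p = 0.459 for each).

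Among macrophages, cluster 26, led by *Ch25h*, *Ms4a7* and the complement genes *C1qa* to *C1qc*, was 31.6%, 5.37% and 4.59% of isotype tumors and 16.3%, 23.2% and 19.4% of aPD1 tumors. Cluster 17, led by the histone and mitosis genes of dividing cells, was at 5.35%, 0.256% and 0.472% against 2.67%, 3.99% and 2.18%. In both, the isotype tumor of pool 3 was the highest of the 6 and the other isotype tumors the lowest (log2 fold 1.01 and 1.26, edgeR adjusted p = 0.459 for each). Clusters 9 and 5 did not overlap between the groups. Cluster 9, led by *Cbr2*, *Lyve1* and *Folr2*, was 0.301%, 0.724% and 0.558% against 1.18%, 2.10% and 1.71%, and cluster 5, led by *Ly6i* and *Cfb*, was 12.3%, 12.2% and 12.7% against 14.8%, 13.4% and 15.4%. Their log2 folds were 1.65 (SE 1.11) and 0.23 (SE 0.47), with edgeR adjusted p of 0.459 and 0.89. Cluster 15, led by the cathepsin gene *Ctsk* and by *Acp5* and *Ocstamp*, genes known from osteoclasts, was 0.167%, 0% and 0.0858% of isotype and 0.272%, 0.971% and 0.311% of aPD1 tumors, apart but from few cells (log2 fold 2.22, SE 1.08, edgeR adjusted p = 0.459).

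When the isotype tumor of pool 3 was left out, 4 clusters passed. Cluster 10 was lower with aPD1 by a log2 fold of -4.26 (SE 1.33) and cluster 23, led by *Il17a*, *Il23r* and the gamma-delta T cell receptor gene *Tcrg-C1*, by -2.40 (SE 0.76), while macrophage clusters 17 and 26 were higher by 3.01 (SE 0.90) and 1.98 (SE 0.66). The adjusted p was 0.0318 for clusters 10, 17 and 23 and 0.0389 for cluster 26 (edgeR). Leaving out any of the other 5 tumors gave 0 calls, and so did leaving out the 2 tumors that share an animal identifier, of which it is 1, with 5 clusters at an unadjusted p under 0.05. The tumor was singled out by its cluster makeup, the measure tested here, so these p-values are a description and not independent evidence.

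**Figure D2:**
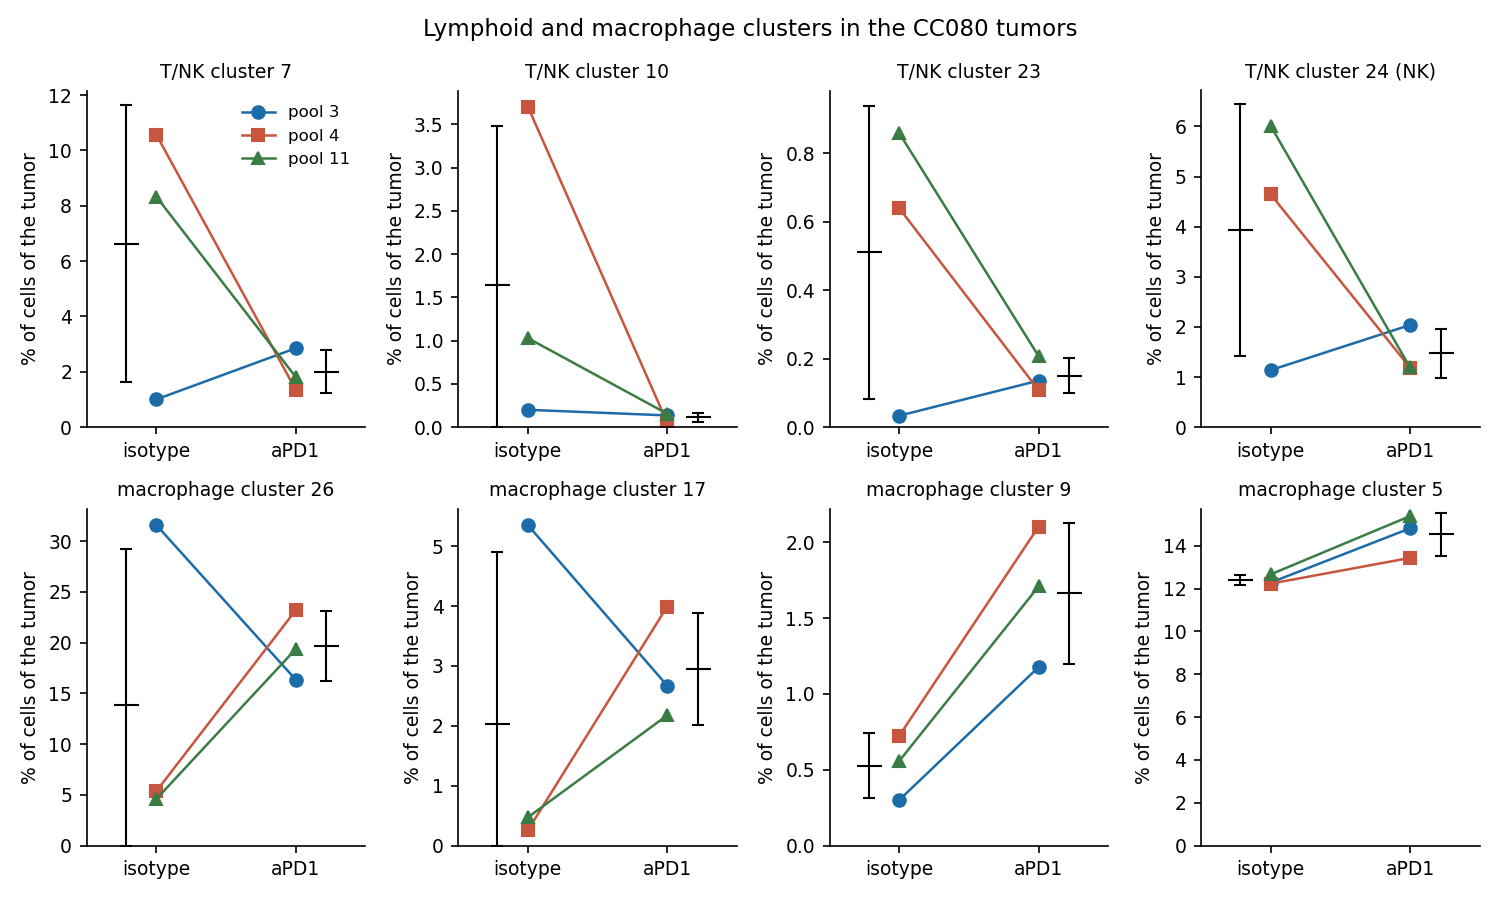
Percent of each tumor's cells in 4 T/NK and 4 macrophage clusters, by treatment, with lines joining the tumors of a pool and the mean and SD of 3 tumors beside each group (bars stop at 0). In clusters 7, 23, 24, 26 and 17 the isotype tumor of pool 3 sits at the far end from the other isotype tumors, while in clusters 9 and 5 every aPD1 tumor is above every isotype tumor.

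In macrophages, summed per tumor over clusters 2, 4, 5, 9, 15, 17, 19, 21, 26 and 27, no gene passed: edgeR called 0 of 7850 genes (0.0%) and DESeq2 called 0. At an unadjusted p under 0.05 edgeR had 306 genes (3.9%), of which 145 were higher with aPD1 (1.85%) and 161 lower (2.05%). Groups did not overlap for 337 genes that were higher (4.29%) and 108 that were lower (1.38%). In such sums a change in RNA per cell and a change in the mix of cells cannot be told apart. Without the aPD1 tumor of pool 3 edgeR called 2 genes, *Itgav* and *Hk2*, and without the isotype tumor of pool 3 it called 0. The count at an unadjusted p under 0.05 was unstable. It was 703 and 1231 without the aPD1 or the isotype tumor of pool 3, 56 and 68 without those of pool 4, and 240 without either tumor of pool 11. The adjusted p-values of the macrophage genes named below are edgeR's, and the smallest is 0.968.

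Targets of interferon-gamma had lower levels with aPD1, without passing. Of 15 CXCR3 chemokines and interferon-gamma target enzymes 13 were measured, 0 were called, 0 had a log2 fold above 0, and the median was -0.79, where over all genes 52.1% were above 0 and the median was 0.01. *Cxcl9*, a ligand that draws CXCR3+ T cells, stood at 865, 1251 and 191 CPM (UMIs per 1000000 UMIs of the cells summed) in isotype and 369, 279 and 354 CPM in aPD1 macrophages (log2 fold -0.87, SE 0.55). The isotype tumors held both the highest values and the lowest. *Irf1*, a transcription factor and early target of interferon-gamma, was at 129.9, 269 and 143 CPM against 109, 79.5 and 97.3 CPM (log2 fold -0.86, SE 0.36), and *Socs1*, which inhibits the receptor's signalling, at 54.2, 132 and 64.1 CPM against 59.6, 38.4 and 36.4 CPM (-0.84, SE 0.34). *Irf1* did not overlap between the groups, with pool 4 widest apart. *Gbp2*, a guanylate-binding protein, was at 182, 482 and 153 CPM against 184, 99.0 and 132 CPM, and *Ciita*, the master regulator of MHC class II, at 55.9, 159.9 and 89.4 CPM against 58.0, 44.9 and 68.6 CPM.

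The differences in this list were uneven over pools. The median log2 difference of its members within a pool was -0.07 in pool 3, -1.81 in pool 4 and -0.21 in pool 11. All 7 MHC class II genes were also below 0 (median -0.39), with pool medians of -0.08, -1.11 and 0.12. Their most abundant members are *Cd74*, the invariant chain, at 10664, 14169 and 8975 CPM against 10103, 7679 and 10044 CPM, and *H2-Aa* at 4275, 6428 and 3547 CPM against 3891, 2834 and 3868 CPM. Here the aPD1 tumor of pool 4 was lowest and the isotype tumor of pool 4 highest. MHC class I genes were above 0 in 1 of 10 (median -0.26) and type I interferon-stimulated genes in 1 of 11 (median -0.13).

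The ligands of PD-1 were also widest apart in pool 4. *Cd274* was at 107, 317 and 168 CPM in isotype and 114, 73.6 and 109 CPM in aPD1 macrophages (log2 fold -0.88, SE 0.44), and *Pdcd1lg2* at 11.2, 78.3 and 36.5 CPM against 14.7, 6.12 and 15.7 CPM (-1.53, SE 0.76). Both overlapped through pool 3, where the paired tumors were close. *Pdcd1* itself was at most 1.85 CPM in macrophages. The IFN-gamma signature of 18 genes, scored as the mean log2(CPM + 1) over macrophages, was 4.87, 5.59 and 4.89 in isotype and 4.86, 4.80 and 4.79 in aPD1 tumors. It was lower with aPD1 in 3 of 3 pools, with differences of -0.01, -0.79 and -0.10, and 10 of its genes that passed the filter had a median log2 fold of -0.41 with 1 above 0. The ratio of *Cxcl9* to *Spp1* per tumor, a measure of macrophage polarity, had log2 values of -0.16, 0.69 and -2.41 against -1.87, -2.16 and -1.83, a difference of -1.33 (exact permutation p = 0.4, adjusted 0.667).

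The chemokine and enzyme list was also below the median of all genes within each of the 7 macrophage clusters tested, with 0 called in each. Its median log2 fold was -0.58 in cluster 2 (0 of 13 above 0), -0.61 in cluster 4 (1 of 12), -0.53 in cluster 5 (1 of 13), -0.46 in cluster 21 (0 of 12), -0.93 in cluster 26 (0 of 12) and -1.23 in cluster 27 (0 of 7). In cluster 19 it was -1.90 (0 of 4), where 41.3% of all genes were above 0 and other lists were low too, with 0 of 6 complement and 0 of 7 MHC class I genes above 0. In cluster 19, macrophages with a median of 1225 UMIs over the series, *Cxcl10* was at 162, 177 and 908 CPM in isotype and 57.5, 45.8 and 48.1 CPM in aPD1 tumors (log2 fold -2.90, SE 0.75, edgeR adjusted p = 0.538). The groups did not overlap. *Irf1* there was at 94.5, 621 and 384 CPM against 67.1, 64.1 and 96.3 CPM (-2.13, SE 0.47, edgeR adjusted p = 0.26), overlapping only between the isotype tumor of pool 3 and the aPD1 tumor of pool 11. The summed level of the chemokine and enzyme list was not lower in every pool. With aPD1 it was higher in pool 11 of cluster 26 (385 to 674 CPM) and of cluster 27 (219 to 232 CPM). It was also higher in pool 3 of cluster 4 (2713 to 3089 CPM), and lower in the other pools of these clusters. MHC class II genes were above 0 in 6 of 7 in cluster 4 and in 0 of 7 in clusters 19 and 26.

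Some genes of resident-like macrophages had higher levels with aPD1, none past the test. Of the 8 genes of the list *Folr2*, *Cbr2*, *F13a1* and *Mrc1* passed the filter on low counts, with 0 called, 4 above 0 and a median of 0.97. *Folr2*, a folate receptor of tissue macrophages, was at 16.1, 9.64 and 15.02 CPM in isotype and 36.0, 47.1 and 32.0 CPM in aPD1 macrophages (log2 fold 1.48, SE 0.54). *Cbr2*, a carbonyl reductase, was at 11.1, 12.3 and 18.2 CPM against 27.5, 45.4 and 31.9 CPM, and neither gene overlapped between the groups. *F13a1*, a coagulation factor subunit, was at 47.3, 183 and 228 CPM against 237, 189 and 212 CPM (log2 fold 0.58, SE 0.52), and *Mrc1*, the mannose receptor, at 150.2, 333 and 278 CPM against 246, 305 and 244 CPM (0.02, SE 0.43). Both overlapped and were lower with aPD1 in pool 11. Outside the list, *Stab1*, a scavenger receptor, was at 111, 105 and 109 CPM against 174, 230.0 and 161 CPM, and *Pf4*, a CXC chemokine, at 284, 204 and 289.7 CPM against 548, 757 and 487 CPM (1.15, SE 0.60), both without overlap. *Folr2* and *Cbr2* also lead cluster 9, whose share was higher in every aPD1 tumor. Within cluster 26, *Folr2* was at 17.8, 24.01 and 65.6 CPM against 55.2, 80.4 and 67.5 CPM and *Cbr2* at 14.4, 28.8 and 90.2 CPM against 41.9, 71.1 and 58.2 CPM, so that both overlapped there, and *Cbr2*, *Pf4*, *F13a1* and *Mrc1* were lower with aPD1 in pool 11. Leaving cluster 9 out of the sums, a comparison added after the data were seen, gave a median of 0.86, and leaving out the isotype tumor of pool 3 gave 0.43 with 2 of 4 above 0.

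Other macrophage lists also had 0 called. All 13 genes of hypoxia and glycolysis were below 0 (median -0.47), among them *Hk2*, hexokinase, at 59.7, 95.9 and 79.1 CPM against 60.3, 55.8 and 49.2 CPM, and *Pfkp*, phosphofructokinase, at 66.4, 138 and 136 CPM against 77.0, 57.1 and 83.3 CPM. For both, pool 3 was even or higher with aPD1 and the other pools lower. Single clusters differed in this list. It was above 0 in 0 of 12 genes in cluster 26 (median -0.41) and 1 of 8 in cluster 19 (-0.24). In clusters 27 and 4 it was above 0 in 7 of 13 (0.03) and 7 of 10 (0.09). All 12 cell cycle genes were above 0 (median 0.54), with pool medians of -0.44, 1.86 and 0.74. *Mki67* was at 126, 26.3 and 32.2 CPM against 88.4, 134 and 58.0 CPM, highest in the isotype tumor of pool 3 among controls. Without that tumor the list's median was 1.29. Within single clusters, cell cycle genes were above 0 in 7 of 12 in cluster 26 (median 0.04) and 2 of 3 in cluster 4 (0.14). In clusters 27 and 19 they were above 0 in 1 of 6 (-0.75) and 1 of 7 (-0.86). Of 7 genes of the arginase and type 2 list, 1 was above 0 (median -0.67), with pool medians of 1.30, -1.61 and -0.75, and without the isotype tumor of pool 3 the median was -1.38. *Arg1*, arginase, ran from 311 to 1726 CPM in isotype and from 565 to 887 CPM in aPD1 tumors. *Spp1*, osteopontin, was at 938, 624 and 1253 CPM against 1474, 1453 and 1345 CPM, above every control in every aPD1 tumor (0.59, SE 0.50).

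By the rule of smallest p with equal sign in all pools, *Def8* (49.5, 39.2 and 57.2 CPM against 133, 138 and 67.3 CPM), *Stab1*, *Fcrls*, *Pf4*, *Psd3*, *Acp5*, *Igfbp4* and *Spp1* led the higher side in macrophages. On the lower side stood *Casp4*, *Nampt*, *Rnf19b*, *Zc3h12a*, *Tnip3*, *Sdc4*, *Id2*, *Irf1*, *Itgal* and *Cd83*. *Nampt*, the enzyme of NAD salvage, was at 156, 329.9 and 192 CPM against 145, 119 and 143 CPM. *Tnip3*, a brake on NF-kB signalling, was at 94.0, 113 and 96.9 CPM against 51.9, 64.3 and 76.2 CPM. Neither overlapped between the groups, and all of these genes had an edgeR adjusted p of 0.968.

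**Figure D3:**
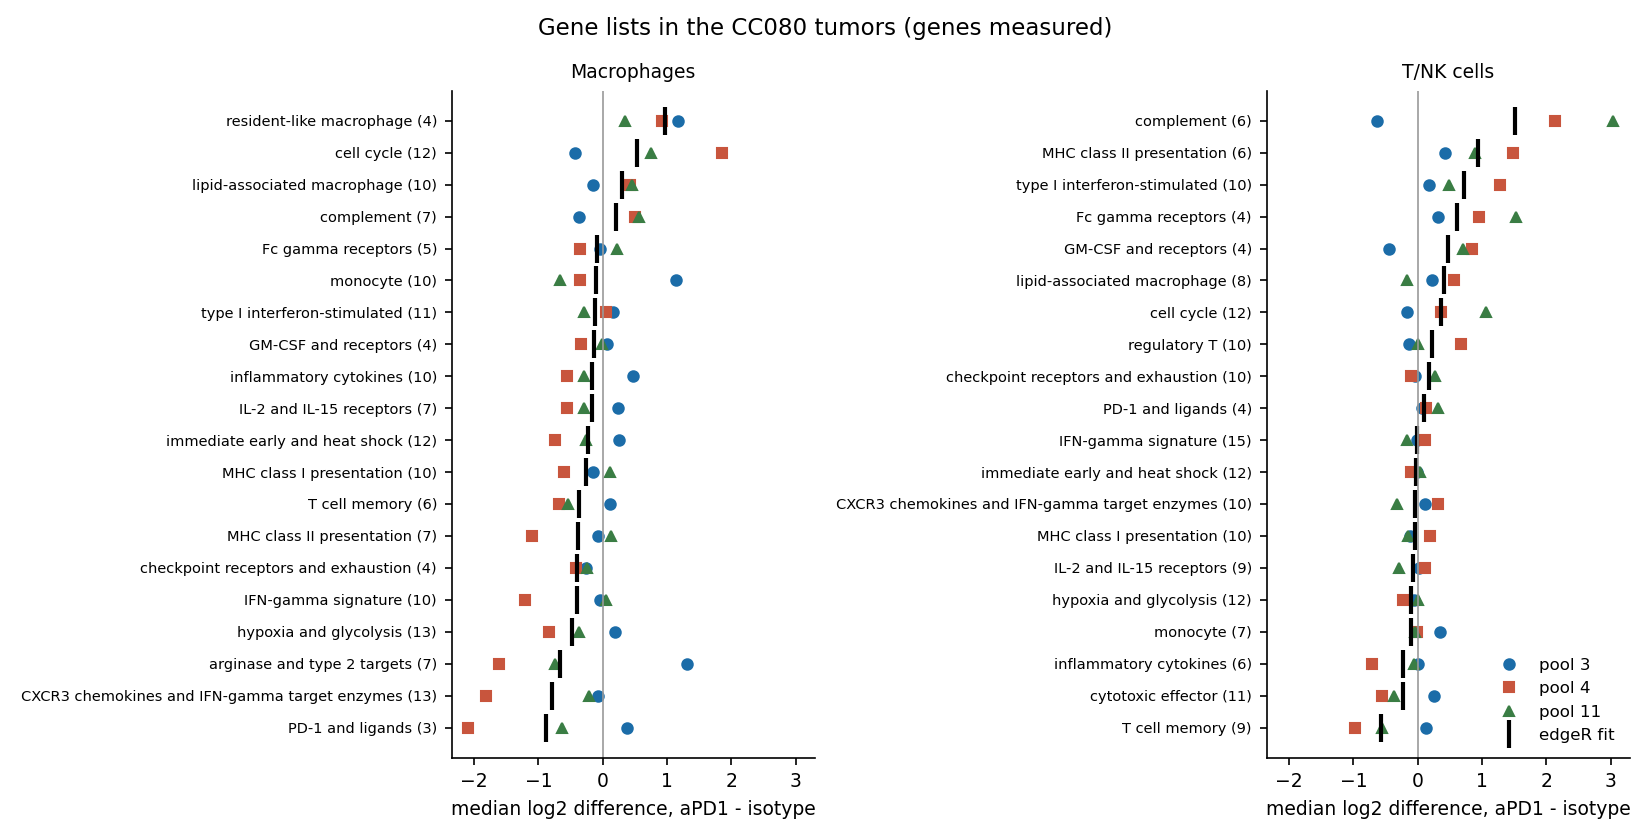
Median log2 difference, aPD1 minus isotype, of each gene list in macrophages (left) and T/NK cells (right), as points for the pair of each pool and a bar for the edgeR fit, with the number of genes measured in brackets. In macrophages the interferon-gamma lists lie far below 0 in pool 4 alone, at -1.81 for the CXCR3 chemokines and target enzymes.

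In T/NK cells, summed over clusters 1, 3, 7, 8, 10, 12, 13, 23 and 24, edgeR called 0 of 7840 genes (0.0%) and DESeq2 called 0. At an unadjusted p under 0.05 there were 442 (5.64%) in edgeR, 233 of them higher with aPD1 (2.97%) and 209 lower (2.67%). Groups did not overlap for 380 genes that were higher (4.85%) and 223 that were lower (2.84%). *Pdcd1*, which encodes the antibody's target, was at 146, 157 and 42.2 CPM in isotype and 126, 138 and 81.9 CPM in aPD1 tumors (log2 fold 0.07, SE 0.38). The groups overlapped. Without the aPD1 tumor of pool 3 edgeR called 15 genes. Of these, *Ntrk3* and *S1pr1* were lower with aPD1 and the others higher, among them *Wfdc17* and the macrophage genes *Trem2*, *C3ar1*, *Csf1r*, *Cd68* and *Spi1*. Without the isotype tumor of pool 4 edgeR called 1 gene, *Ccl8*, higher with aPD1, which is also a leading gene of macrophage cluster 9. Without the isotype tumor of pool 3 it called 0.

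Transcripts of macrophages were higher on average with aPD1 in these sums, with an overlap through pool 3. The 8 macrophage markers summed to 602, 374 and 270.2 CPM in isotype and 580, 1146 and 1407 CPM in aPD1 T/NK cells, with 8 of 8 higher on average with aPD1 and none at 0 in every tumor. The macrophage genes *Pf4* (6.21, 10.9 and 21.4 CPM against 29.7, 85.2 and 150.2 CPM), *Fn1* and *Alox5ap* stood among the 10 named genes of the higher side, and complement genes were above 0 in 6 of 6 (median 1.51, and 2.26 without the isotype tumor of pool 3), with pool medians of -0.63, 2.13 and 3.04. The part of macrophage transcripts in these results was not tested. *Wfdc17*, a secreted antiprotease that macrophages also express, was at 3.10, 4.90 and 6.43 CPM in isotype and 11.6, 23.1 and 50.7 CPM in aPD1 T/NK cells (log2 fold 2.40, SE 0.47, edgeR adjusted p = 0.063).

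T cell memory genes had lower levels with aPD1 in pools 4 and 11, none past the test. *S1pr1*, the receptor by which lymphocytes leave tissue, was at 4.65, 14.7 and 45.7 CPM in isotype and 0, 1.77 and 5.85 CPM in aPD1 tumors (log2 fold -3.09, SE 0.64, edgeR adjusted p = 0.0709). It was lower with aPD1 in 3 of 3 pools, with an overlap between pools, and it was called without the aPD1 tumor of pool 3 (edgeR adjusted p = 0.0331). The levels of the aPD1 tumors and of the isotype tumor of pool 3 rest on few UMIs. *Ccr7*, the lymph node homing receptor, was at 24.8, 28.9 and 62.2 CPM against 9.91, 14.2 and 17.6 CPM (-1.43, SE 0.58), with no overlap. *Tcf7* and *Lef1*, transcription factors of naive and memory T cells, were at 29.5, 67.0 and 143 CPM against 46.2, 19.5 and 85.8 CPM and at 38.8, 83.9 and 144 CPM against 38.0, 33.7 and 117 CPM. Of 9 T cell memory genes measured 1 was above 0 (median -0.57, pool medians 0.12, -0.98 and -0.55), where over all genes 49.1% were above 0 and the median was -0.01. The share of cluster 7, where *Tcf7* and *Lef1* are high, was lower with aPD1 in pools 4 and 11 and higher in pool 3. Within cluster 7, *S1pr1* was at 42.9, 38.7 and 126 CPM against 0, 0 and 19.2 CPM (edgeR adjusted p = 0.852), without overlap. These levels came from 30, 248 and 194 isotype cells and 63, 25 and 35 aPD1 cells, so the low values rest on few cells. The memory list as a whole had a median of -0.15 in cluster 7, with 2 of 9 above 0 and a summed level that was higher with aPD1 in pools 3 and 11.

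All 10 type I interferon-stimulated genes measured in T/NK cells were above 0 (median 0.72, pool medians 0.17, 1.28 and 0.48). *Irf7*, a transcription factor that sustains the type I response, was at 44.99, 27.8 and 32.9 CPM against 47.9, 69.2 and 89.8 CPM, and *Ifit2*, an antiviral effector, at 6.21, 10.9 and 25.7 CPM against 19.8, 33.7 and 35.1 CPM. *Irf7* did not overlap and *Ifit2* did, and their edgeR adjusted p were 0.789 and 0.741. In cluster 7, whose macrophage markers summed to 64.3 to 142 CPM in isotype and 67.1 to 139 CPM in aPD1 tumors, 6 of 6 measured genes of this list were above 0 (median 1.03), among them *Ifit3* at 64.3, 38.7 and 27.5 CPM against 109.6, 341 and 67.1 CPM (edgeR adjusted p = 0.709). The list's summed level in cluster 7 was 964, 362 and 491 CPM against 747, 1873 and 892 CPM. It was lower with aPD1 in pool 3 and widest apart in pool 4, where the aPD1 tumor held 25 such cells. In clusters 8 and 24 only 1 gene of the list was measured, above 0 in cluster 8 (0.82) and below 0 in cluster 24 (-0.66). The summed level in cluster 24 was 102, 107 and 42.0 CPM against 38.0, 39.8 and 61.4 CPM. In macrophages the same list had a median of -0.13, and the difference between the cell types was not tested.

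Of 11 cytotoxic genes measured in T/NK cells 3 were above 0 (median -0.23), with pool medians of 0.25, -0.55 and -0.37. Without the isotype tumor of pool 3 the list's median was -0.47, with 1 above 0. *Ifng* was at 233, 541 and 109 CPM in isotype and 205, 186 and 89.8 CPM in aPD1 T/NK cells (log2 fold -0.67, SE 0.80), lower in 3 of 3 pools but overlapping. *Gzmb*, granzyme B, was at 258, 576 and 422 CPM against 487, 489.6 and 249.7 CPM. Checkpoint receptors were above 0 in 8 of 10 (median 0.17, pool medians -0.05, -0.11 and 0.27). Regulatory T cell genes were above 0 in 9 of 10 (median 0.23, and 0.40 without the isotype tumor of pool 3), with pool medians of -0.14, 0.67 and 0.01. By the rule of smallest p, *Alox5ap*, *Erp29*, *Pf4*, *Ptprj*, *Lyar*, *Fn1*, *Ms4a6c*, *Rbm27*, *Gpx1* and *Dnajc9* led the higher side and *Mllt3*, *Id2*, *Glrx2*, *Ints6*, *Ifi27*, *Sema4a*, *Klrc1*, *Itpr1*, *Cd6* and *Spn* the lower. *Klrc1*, which encodes the inhibitory NK receptor NKG2A, was at 242, 239 and 202 CPM against 183, 154 and 140.5 CPM (edgeR adjusted p = 0.741), with no overlap.

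Within single clusters, 13 had at least 20 cells in every tumor and were tested. Over 61908 tests edgeR made 7 calls (0.0113%), in 5 of 13 clusters, and 2373 (3.83%) had an unadjusted p under 0.05. Every one of the 7 calls rests on the pool block: without it there were 0. Without the isotype tumor of pool 3 there were 15 calls and without that of pool 4 there were 12. DESeq2 was not run within clusters.

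NK cells gave 2 calls in 2929 genes (0.0683%), *Ifng* and *Ccl5*, both lower with aPD1. Cluster 24 carried the NK receptor gene *Ncr1* at 452, 312 and 442 CPM in isotype and 259.9, 385 and 368 CPM in aPD1 tumors, with *Klre1* and *Eomes*, while the T cell genes *Cd3e* and *Trac* were at most 19.0 and 25.4 CPM. *Ifng* (chromosome 10, 118441046 to 118445892, GRCm38) was at 249, 213 and 85.8 CPM in the isotype and 31.7, 39.8 and 10.2 CPM in the aPD1 tumors. All 3 aPD1 values were under the lowest isotype value (log2 fold -2.65, SE 0.47, edgeR adjusted p = 0.000234). The counts were small: 22, 50 and 47 UMIs in the isotype tumors came from 6 of 34, 26 of 109 and 27 of 140 cells, and 5, 3 and 1 UMIs in the aPD1 tumors from 4 of 45, 1 of 22 and 1 of 23 cells. Pooled over tumors the level was 5.02 times lower with aPD1 (95% exact interval 2.56 to 11.3, counting error only). Of macrophages, which should lack the gene, at most 0.330% had an *Ifng* UMI, at median depths of 2365 to 4960 UMIs against 1479 to 3379 UMIs for the NK cells. *Ifng* was called in 7 of 10 alternatives, but not without the isotype tumor of pool 3 (log2 fold -2.02, adjusted p = 0.114) or without the tumors that share an animal identifier (-1.56, SE 0.77, adjusted p = 0.999). Without the isotype tumor of pool 4 the log2 fold was -3.38. Without the tumors that share an identifier, 2 of the 7 genes called within clusters, *Gzmd* and *Gzme*, were still called, and NK cells gave *Ccl4* and *Dusp1*, both lower with aPD1 (log2 fold -3.37 and -2.43), in place of *Ifng* and *Ccl5*.

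*Ccl5*, a chemokine made by cytotoxic cells (chromosome 11, 83525778 to 83530518, GRCm38), was at 1527, 2544 and 850.3 CPM in isotype and 735, 651 and 624 CPM in aPD1 NK cells. Every aPD1 tumor lay below every isotype tumor, closely in pool 11 (log2 fold -1.14, SE 0.20, edgeR adjusted p = 0.000612). It was called in 4 of 10 alternatives, and not without the aPD1 or the isotype tumor of pool 4 (adjusted p = 0.242 and 0.335), with scaling by library size alone (0.799) or with tumors of at least 10 NK cells in the fit (0.998), nor without the tumors that share an animal identifier (log2 fold -0.76, adjusted p = 0.999). *Gzma*, granzyme A, at 1618, 2509.8 and 949 CPM against 792, 451 and 747 CPM, and the chemokine gene *Ccl4*, at 1493, 657 and 693 CPM against 482, 372 and 20.5 CPM, also did not overlap and did not pass (edgeR adjusted p = 0.975 for each). *Gzmb* (464, 615 and 571 CPM against 513, 425 and 327 CPM) and *Prf1*, perforin, overlapped. Of 11 cytotoxic genes measured in cluster 24, 2 were called, both lower, and 3 were above 0, with a median of -0.34 beside 0.00 over all its genes.

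The other leading genes of NK cells did not pass. *Dusp1*, an early phosphatase, was at 396, 521 and 197 CPM in isotype and 266, 199 and 51.1 CPM in aPD1 tumors (log2 fold -1.21, edgeR adjusted p = 0.0629). *Hmgb2*, a chromatin protein of dividing cells, was at 973, 444 and 666 CPM against 1065, 1686 and 910.2 CPM, and the chaperone genes *Cct4* and *Hsp90aa1* were higher in every aPD1 tumor than in any isotype tumor (edgeR adjusted p = 0.217 and 0.223). Cell cycle genes were above 0 in 6 of 6 in this cluster (median 0.69). Macrophage markers summed to 67.9 to 102 CPM in isotype and 20.5 to 79.7 CPM in aPD1 NK cells.

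**Figure D4:**
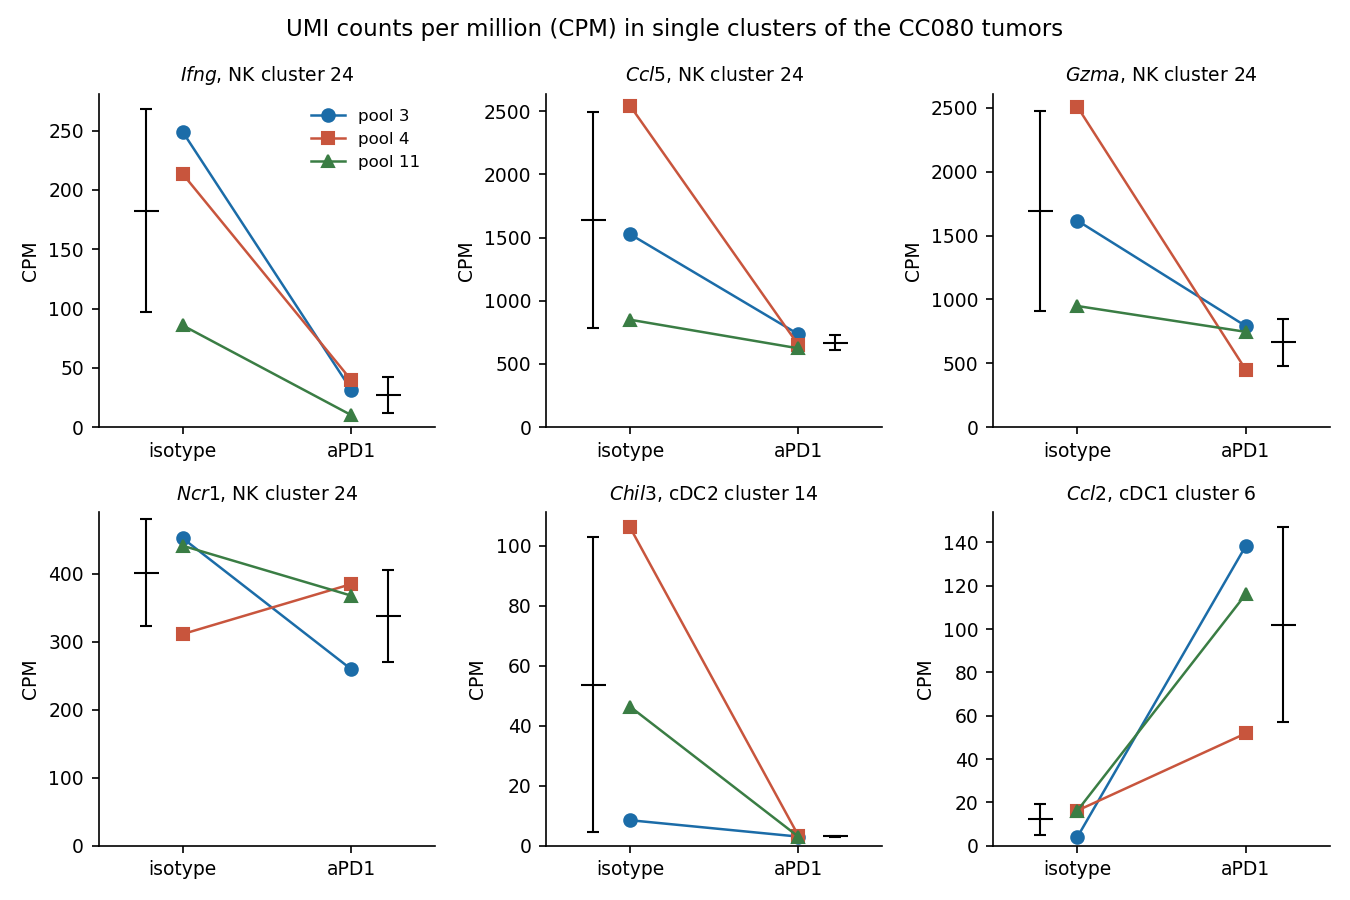
CPM of 6 genes in single clusters, by tumor, with lines joining the tumors of a pool and the mean and SD of 3 tumors beside each group. *Ifng*, *Ccl5* and *Gzma* in NK cells and *Chil3* in cDC2 are lower in every aPD1 tumor than in any isotype tumor, *Ncr1* overlaps, and *Ccl2* in cDC1 is higher in every aPD1 tumor.

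Dendritic cells gave 1 call in each of 2 clusters. In cDC2 (cluster 14, rich in *Cd209a* and *Mgl2*), 1 of 7066 genes was called (0.0142%). *Chil3*, a chitinase-like protein of monocytes and macrophages (chromosome 3, 106147554 to 106167564, GRCm38), was at 8.49, 106 and 46.4 CPM in isotype and 3.02, 3.36 and 3.01 CPM in aPD1 tumors. The aPD1 values were alike, and the isotype values spread widely (log2 fold -3.90, SE 0.61, edgeR adjusted p = 0.00443). The UMIs were 6, 89 and 54 against 2, 2 and 3, from 2 of 126, 7 of 183 and 6 of 172 cells in the isotype tumors and 1 of 121, 2 of 102 and 1 of 125 cells in the aPD1 tumors. In macrophages *Chil3*, a leading gene of macrophage cluster 4, was at 30.0, 239.6 and 423 CPM against 75.4, 62.3 and 208 CPM. It was highest there too in the isotype tumors of pools 4 and 11. The macrophage markers in cluster 14 overlapped (2935 to 3127 CPM against 2074 to 3749 CPM). What share of the *Chil3* difference comes from monocyte or macrophage transcripts was not tested. *Chil3* in cluster 14 was called in 4 of 10 alternatives, and not without any single tumor of pool 4 or 11 (adjusted p = 0.632 without the aPD1 tumor of pool 4), nor without the tumors that share an animal identifier (0.503).

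In cDC1 (cluster 6, with *Xcr1* and *Clec9a*), 1 of 4234 genes was called (0.0236%). *Ccl2*, the chemokine that recruits monocytes (chromosome 11, 82035571 to 82037453, GRCm38), was at 3.94, 16.2 and 16.1 CPM in isotype and 138, 51.8 and 116 CPM in aPD1 tumors, with no overlap (log2 fold 2.77, SE 0.44, edgeR adjusted p = 0.00521). The UMIs were 1, 8 and 7 against 47, 12 and 38, and in pool 11 of the aPD1 tumors 26 of the 38 came from 1 cell. Macrophage markers also had higher levels in this cluster with aPD1, at 173.5, 532 and 378 CPM against 1065, 665 and 509.7 CPM, 8 of 8 higher on average. Macrophages themselves held *Ccl2* at 632 to 1252 CPM in all 6 tumors. *Apoe*, at 19.7, 24.3 and 27.7 CPM against 235, 164 and 33.6 CPM, and the chemokine gene *Ccl6* were higher as well, without passing (edgeR adjusted p = 0.54 and 0.614). What share of the *Ccl2* difference comes from macrophage transcripts was not tested. It was called in 3 of 10 alternatives, and not without either tumor of pool 3 or pool 11 (adjusted p = 0.0697 without the isotype tumor of pool 3), nor without the tumors that share an animal identifier (0.592).

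The other 3 calls come from single cells. In regulatory T cells 2 of 2895 genes were called (0.0691%), the granzyme genes *Gzmd* and *Gzme*, both lower with aPD1. *Gzmd* was at 0, 255 and 963 CPM in isotype and at 0 CPM in every aPD1 tumor, but 69 of 69 UMIs in pool 4 and 167 of 167 in pool 11 lay in 1 cell each. *Gzme* was at 0, 173 and 513 CPM against 0, 0 and 6.98 CPM, with 46 of 47 and 89 of 89 UMIs in 1 cell each. Pooled over tumors, *Gzmd* was at least 61.5-fold lower with aPD1, taking 3 counts over the group as the floor. In macrophage cluster 27, 1 of 4194 genes was called (0.0238%): *Cep76*, a centrosomal protein gene, at 3.85, 0 and 8.94 CPM against 179, 6.00 and 0 CPM, where 57 of the 57 UMIs of the aPD1 tumor of pool 3 were in 1 cell. These levels describe 1 cell each rather than a cluster. *Foxp3* in cluster 8 was at 234, 247 and 196 CPM against 220.5, 376 and 69.8 CPM, with no call, and *Ctla4* had a log2 fold of 0.01.

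The treatment effect in CC080 was set against that in the other strains the study classed as non-responders, CC036 and CC079 (12 tumors), and against that in the responder strains CC001, CC002 and CC075 (20 tumors). For cluster shares 0 of 27 differed from the non-responders (0.0%; 1 or 3.7% at an unadjusted p under 0.05) and 0 from the responders (0.0%; 4 or 14.8%), in edgeR. Those 4 were clusters 23 (-2.48), 10 (-3.58), 15 (2.83) and 17 (2.01) on the log2 scale. Without the isotype tumor of pool 3, clusters 23, 17 and 10 differed from the responders, by -3.40, 3.80 and -4.55 (edgeR adjusted p = 0.00947, 0.00947 and 0.0393), again after a choice of tumor made on the same shares, and without the 2 tumors that share an identifier 0 did.

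In macrophages 0 of 7850 genes had an effect that differed from the non-responders (0.0%), with 277 (3.53%) at an unadjusted p under 0.05, and 0 differed from the responders (0.0%), with 1129 (14.4%). Of the 13 CXCR3 chemokines and target enzymes, 12 were among those 1129, all with the lower effect in CC080, and the list's median difference was -1.38 beside 0.01 over all genes. *Cxcl9* differed by -1.47 (SE 0.62, edgeR adjusted p = 0.306) and *Cd274* by -1.70 (SE 0.50, adjusted p = 0.232). Of 7 MHC class II genes 5 were among the 1129 (median -0.86). Against CC036 and CC079 the chemokine and enzyme list had a median of -0.95, with 2 of 13 at an unadjusted p under 0.05.

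In T/NK cells, for which these comparisons were added after the data were seen, 1 of 7840 genes differed from the non-responders (0.0128%; 360 or 4.59% unadjusted) and 0 from the responders in edgeR (0.0%; 371 or 4.73% unadjusted). The gene was *Wfdc17*, whose effect in CC080 was higher by 3.37 on the log2 scale (SE 0.62, edgeR adjusted p = 0.019). In CC036 it was at 19.6 to 32.3 CPM in isotype and 7.17 to 12.3 CPM in aPD1 tumors, and in CC079 at 6.90 to 61.6 CPM and 13.9 to 37.1 CPM, so that the CC080 isotype tumors were below all of these. In CC080 T/NK cells the macrophage markers given above were higher with aPD1 in pools 4 and 11. In pool 3 they were at 602 CPM in isotype and 580 CPM in aPD1, and *Wfdc17* was at 3.10 and 11.6 CPM. What share of the *Wfdc17* difference comes from macrophage transcripts was not tested. In cluster 14 no gene's effect differed from either set of strains (0.0% of 7066 for each, edgeR). *Chil3* had differences of -4.62 and -3.84, with edgeR adjusted p of 0.80 and 0.75. In cDC2 of every other strain it was at most 22.8 CPM with either antibody, which the CC080 isotype tumors of pools 4 and 11 exceeded.

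The IFN-gamma signature of macrophages differed between aPD1 and isotype tumors by -0.01, -0.79 and -0.10 in the CC080 pairs. Mean pair differences in the responder strains were 0.49 in CC001 (higher in 4 of 4 pairs), 0.18 in CC002 (3 of 3) and 0.36 in CC075 (3 of 3). In CC036 the mean was -0.21 with 1 of 3 pairs higher, in CC079 -0.01 with 2 of 3 higher and in B6 hosts 0.04 with 2 of 3 higher. In CC007 hosts the mean was -0.63 with 0 of 2 pairs higher, so a lower value in every pair was not particular to CC080. T/NK shares in CC036 differed by -40.7 to 4.08 percentage points within pools, a range that contains that of CC080, -21.4 to 2.98.

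**Figure D5:**
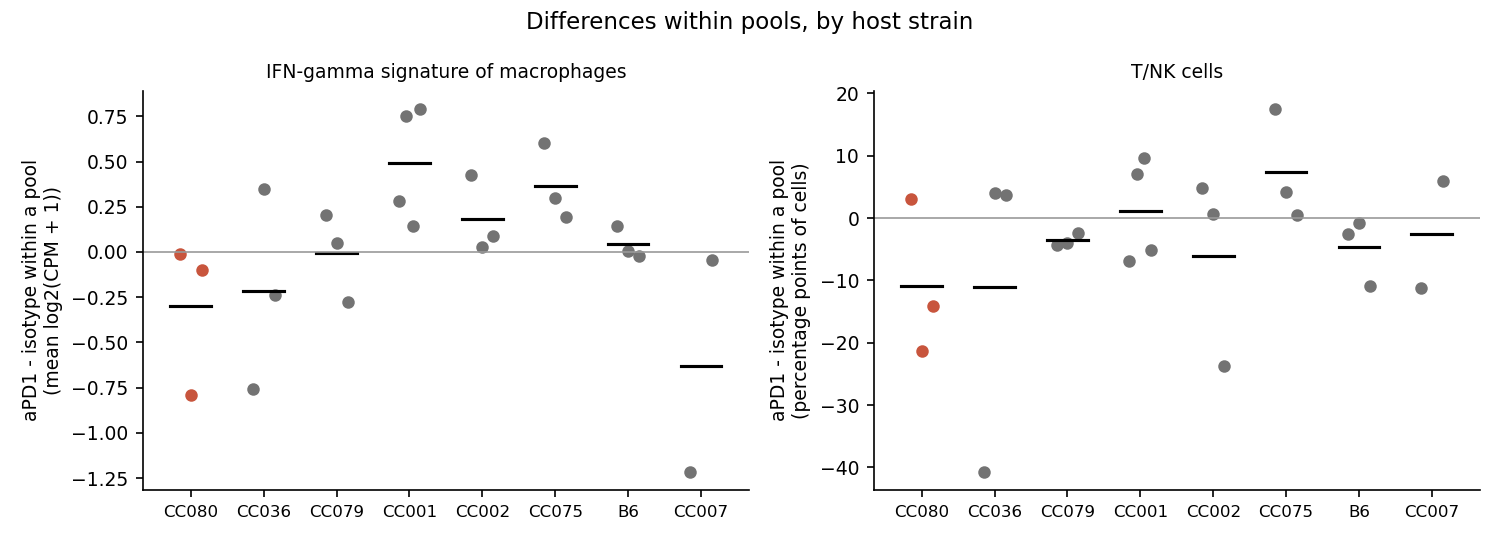
Difference between the aPD1 and the isotype tumor of each pool, by host strain (CC080 in red, other strains in grey, mean as a black line), for the IFN-gamma signature of macrophages and for the share of T/NK cells. The 3 CC080 pairs are below 0 for the signature, 1 of them at -0.01, as are the 2 pairs of CC007, while every pair of CC001, CC002 and CC075 is above 0. The signature averages 18 genes, of which 10 passed the filter on low counts.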

How the data were processed

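The authors deposited whole-number UMI counts per gene and cell, with a metadata table of each cell's pool, strain, treatment and cluster. Per the labels they used Cell Ranger, GRCm38 (mm10) and Seurat 5.0.1. The deposited cells reach at most 14.99% mitochondrial and 44.99% ribosomal reads. Tumors within a pool were assigned by hashing antibodies in the metadata, and no further doublet caller was run. Clusters were named from marker genes by the median level over tumors, a choice made after transcripts of a few tumors were seen to misname clusters 5 and 12.

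UMI counts were summed per tumor and cell set. edgeR 4.0.16 (quasi-likelihood, TMM, R 4.3.3) was fitted to every tumor with at least 20 cells of the set (48 for shares and macrophages, 47 for T/NK cells, 27 to 47 for single clusters, with 27 for clusters 6 and 24 and 5 residual degrees of freedom for cluster 24) with the pool as a block, a treatment effect for each strain and Benjamini-Hochberg adjustment, and calls were made at an adjusted p under 0.05. Genes needed a mean of 10 CPM over the 6 CC080 tumors and 60 counts in them. Single clusters were tested where each CC080 tumor held 20 cells. Cluster shares were fitted in the same way to cell numbers. Single values were compared by exact permutation in scipy 1.17.1. Per the labels, each pool is 1 library that holds a pair. Deviations from the group means correlated within pools 3, 4 and 11 by 0.25, -0.27 and 0.60 in macrophages and by 0.15, 0.15 and 0.39 in T/NK cells.

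Named genes were all calls, and for macrophages and T/NK cells up to 10 genes a side of smallest p among those with 50 CPM, a log2 fold of at least 0.5 either way and the same sign in all 3 pools, plus list members of highest CPM. A gene that this rule names in macrophages is not reported here. Other genes named were chosen after their values were seen. Alternatives used DESeq2 1.42.0, limma 3.58.1, other scalings and filters, no block, the 6 tumors alone and single tumors left out. Macrophages without cluster 9 and the strain comparisons in T/NK cells and cluster 14 were added after the data were seen. The steps were tested on simulated data. The members, lists and comparisons were chosen with earlier results of these data known. Intervals cover counting error only. Gene positions are from the GENCODE annotation of GRCm38.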

Additional observations from a re-analysis of the deposited data

Results flagged for a closer look

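The effect of aPD1 on *Wfdc17* in T/NK cells was higher in CC080 than in CC036 and CC079 by 3.37 on the log2 scale. It passed the test of that difference (edgeR adjusted p = 0.019) and was not called without the pool block. Levels in CC080 were low, at 3.10 to 6.43 CPM in isotype and 11.6 to 50.7 CPM in aPD1 tumors. The aPD1 levels lay within the range of the CC079 isotype tumors, 6.90 to 61.6 CPM. Macrophages also express this gene, and the part of their transcripts was not tested.

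The IFN-gamma signature of macrophages was lower with aPD1 in every CC080 pair and higher in every pair of 3 responder strains. The mean pair difference was 0.49 in CC001, 0.18 in CC002 and 0.36 in CC075, against -0.30 in CC080, of which 1 pair was at -0.01. CC007 was also lower in every pair, with a mean of -0.63 over 2 pairs. The score averages all 18 genes, of which 10 passed the filter on low counts in macrophages. T/NK markers in the CC080 macrophage sums were at 5.17, 21.3 and 21.8 CPM in isotype and 6.87, 10.2 and 5.25 CPM in aPD1 tumors. Their part in the score and the difference between strains in it were not tested.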

How the results depend on the processing

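The pairing by pool (replicate block) decided the calls within clusters, which went from 7 to 0 without it, and the 1 T/NK gene that differed from the non-responders, which went to 0. It changed no other call, except that the 6 CC080 tumors alone with the replicate block gave 2 T/NK genes, *Pf4* and *Tff1*. T/NK genes went from 0 to 71 of 17200 with no filter on low counts, and to 1 without the 2 tumors that share an animal identifier. With single tumors left out, the count of clusters called ran from 0 to 4, of macrophage genes from 0 to 2, of T/NK genes from 0 to 15 and of calls within clusters from 6 to 15. Most of the 15 T/NK genes, such as *Csf1r* and *Trem2*, are macrophage genes that were higher with aPD1. The difference in regulatory T cell share turned from 0.112 to -1.29 percentage points without the 2 tumors that share an identifier and ran from -0.951 to 1.23 with single tumors left out. *Cep76* in cluster 27 turned to -3.04 on the log2 scale without those 2 tumors and ran from -1.03 to 5.41 with single tumors left out. The causes of these changes were not tested. The 7 genes called within clusters and *Wfdc17* against the non-responders gave 71 values over the alternatives, of which 41 kept their direction and call, 27 lost the call and 3 turned. These alternatives are not independent checks. With the pool as a block, leaving out either tumor of a pair often gave nearly the same fit. For *Ccl2* in cluster 6 the log2 fold was 2.28 and 2.27 without the aPD1 or the isotype tumor of pool 3. The genes followed without a call were 41, those picked in macrophages and T/NK cells for the same sign in all 3 pools, with *Wfdc17* and *S1pr1*. They gave 533 values, with 0 turned and 9 past the threshold. Genes picked for an equal sign had little room to turn, and other genes named without a call are not among them. Of 540 list medians 17 moved by more than their spread. Each aPD1 tumor held 22 to 45 NK cells, which limits the precision of levels in that cluster.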
